A study of Homo sapiens with 27 samples.

Results

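The genes described here are the 10 that encode the pumps, release channels and sensors of the endoplasmic reticulum (ER) calcium store and their partners at the plasma membrane. They were chosen by name, with earlier results of these data known. All 10 were found among the 60534 gene IDs shared by every library. They comprise the ER pump ATP2A2, the plasma membrane pumps ATP2B1 and ATP2B4, the Golgi pump ATP2C1, the inositol trisphosphate (IP3) receptors ITPR1, ITPR2 and ITPR3, the store sensors STIM1 and STIM2, and the entry channel ORAI1. Expression was measured by RNA-seq and by ribosome profiling (Ribo-seq) in IMR90, an established human fibroblast line from fetal lung. Ribo-seq counts footprints, the short stretches of mRNA shielded by ribosomes when the rest is digested.

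The 27 libraries fell into 5 states. Cycling cells gave 2 RNA-seq and 3 Ribo-seq libraries. Quiescent cells, arrested by contact inhibition, gave 3 of each. Cells made senescent by 15 Gy of ionizing radiation and harvested after 10 days gave 3 of each, as did cells made senescent by 3 treatments with 50 µM etoposide, a topoisomerase II inhibitor, over 10 days. Cycling cells given 25 nM thapsigargin for 3 h gave 2 of each. The labels give the genotype of all but the thapsigargin cells as WT, and describe the thapsigargin cells' medium without the antibiotics listed for the others. A label characteristic describes every thapsigargin library, RNA-seq included, as protected fragments, so the assay was taken from the titles, and the samples' protocols and the series' design text differ on how long RNase was applied to Ribo-seq lysates. All libraries come from 1 cell line, and the labels do not say whether replicates were separate cultures, so the p-values measure the spread between these libraries, which may be technical.

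The ER holds calcium far above the level of the cytosol. ATP2A2 (SERCA2) pumps it in, IP3 receptors let it out on a hormone or growth factor signal, and the plasma membrane pumps expel it from the cell. When the store empties, STIM proteins in the ER membrane cluster and open ORAI1 in the plasma membrane, which lets calcium back in for the pump to refill the store. Thapsigargin blocks the SERCA pumps, so calcium leaks out of the store and protein folding in the ER is disturbed.

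RNA-seq libraries held 20635503 to 57119841 counted reads and Ribo-seq libraries 1936976 to 19996104. The 2 thapsigargin Ribo-seq libraries were the shallowest, with 1936976 and 2044900, and 65.2% to 66.9% of their reads mapped to several places, against 19.8% to 31.9% in the other 12. Of 11765 genes tested in Ribo-seq, 11.8% had no read in thapsigargin replicate 1 and 6.88% in replicate 2, against at most 1.00% in any other library. In thapsigargin RNA-seq 1.35% to 1.40% of reads were unmapped, against 27.8% to 40.6% elsewhere, so for this state treatment and library preparation cannot be told apart. The state labels were checked on marker genes. MKI67, a proliferation marker, fell in RNA-seq, with log2 changes of -3.41 after irradiation and -4.60 after etoposide, the lamin gene LMNB1 fell likewise (-3.54 and -4.15), and the cell cycle inhibitor CDKN1A rose by 1.69 and 1.94. In quiescent RNA LMNB1 fell by 1.12, whereas MKI67 (-0.94, adjusted p = 0.17) and CDKN1A (0.43, adjusted p = 0.072) were not called. MKI67 RNA ran from 41.3 to 148 CPM in the quiescent libraries, so the highest lay within the cycling range of 144 to 167. In quiescent footprints MKI67 fell by 1.14 and CDKN1A rose by 0.42. LMNB1 RNA also changed by -0.90 under thapsigargin. DDIT3, which the ER stress response induces, rose by 3.44 under thapsigargin in RNA-seq and by 5.15 in Ribo-seq. Its RNA also rose in quiescent, irradiated and etoposide cells, by 0.77, 1.23 and 0.81. All 8 fibroblast markers were present in every state, the lowest being LUM at 24.4 CPM (mean) under thapsigargin. In RNA-seq the epithelial markers EPCAM, CDH1 and SFTPC, the endothelial markers PECAM1 and CDH5 and the immune markers PTPRC, CD68 and CD3E had means of at most 0.731 CPM. VWF reached 2.04 CPM there, and KRT18 lay between 55.9 and 81.2 CPM. In cycling Ribo-seq EPCAM had a mean of 0.893 CPM and KRT18 of 95.0 CPM.

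Levels are given as CPM, the gene's reads relative to all reads counted in the library, with library sizes scaled by TMM. They are not corrected for gene length, so they are compared between states and not between genes. Changes are log2 fold changes with their standard error (SE) from edgeR's quasi-likelihood test, and "rose", "fell" and "called" refer to a Benjamini-Hochberg adjusted p under 0.05 over all 13292 genes tested in RNA-seq or 11765 in Ribo-seq. In bulk cultures, fewer cells expressing a gene and less RNA per cell cannot be told apart.

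The 2 IP3 receptor genes that moved most and in opposite directions, ITPR1 and ITPR3, are shown first by the 250 bases before their annotated start sites (RefSeq, GRCh38.p14), since these are the members whose RNA changed most in the senescent states. ITPR1 lies at chr3:4493348-4847506 and its upstream bases at chr3:4493098-4493347 on the plus strand. ITPR3 lies at chr6:33621322-33696562 and its upstream bases at chr6:33621072-33621321 on the plus strand. Capitals mark TATAA in ITPR1 and GGGCGG (GC box) in ITPR3.
ITPR1: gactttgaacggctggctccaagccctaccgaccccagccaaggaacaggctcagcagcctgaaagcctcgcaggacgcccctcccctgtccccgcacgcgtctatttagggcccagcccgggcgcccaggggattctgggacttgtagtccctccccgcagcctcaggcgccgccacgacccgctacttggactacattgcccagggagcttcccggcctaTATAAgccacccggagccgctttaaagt
ITPR3: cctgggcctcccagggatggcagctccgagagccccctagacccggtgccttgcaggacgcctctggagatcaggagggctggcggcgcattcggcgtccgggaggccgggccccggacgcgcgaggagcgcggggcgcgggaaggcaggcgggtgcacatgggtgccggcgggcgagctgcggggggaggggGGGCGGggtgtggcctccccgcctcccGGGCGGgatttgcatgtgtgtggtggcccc

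Promoter windows of 300 bases were found for 8 of the 10 genes (15 windows), with none for ITPR2 and ORAI1. A first search took 6 motifs of stress and calcium responses on both strands, and none of the 6 matched in any of the 15 windows. These were ERSE (in 0.0769% of all 35116 windows), ERSE-II (0.0541%), UPRE (TGACGTGG, 0.729%), CARE (TGATGNAA, 3.62%), NFAT (TGGAAAA, 6.45%) and CRE (TGACGTCA, 1.85%). No match says only that these letters are not in these windows. GGGCGG and TATAA were added after that search had found nothing, TATAA with the ITPR1 sequence in view, so their matches are descriptions of chosen letters. GGGCGG was in 45.0% of all windows and in a window of 7 of the 8 genes, and TATAA was in 20.4% of all windows and among the 8 genes in ITPR1, 28 bases before the start site.

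The IP3 receptor genes changed in opposite directions in senescent cells. ITPR3 fell in both senescent states in both assays, while ITPR1 rose in both, and ITPR2 rose in RNA-seq. ITPR3 RNA stood at 22.3 and 27.6 CPM in the cycling libraries, at 22.4, 19.6 and 16.3 in the quiescent, at 7.73, 5.55 and 6.41 after irradiation, at 2.97, 2.71 and 3.34 after etoposide, and at 89.0 and 151 under thapsigargin. The quiescent libraries overlapped the cycling ones, whereas both senescent groups lay below them, and the thapsigargin libraries lay above all others. Against cycling cells ITPR3 RNA fell by 1.92 (SE 0.22, adjusted p = 2.4e-05) after irradiation and fell by 3.05 (SE 0.23, adjusted p = 3.8e-07) after etoposide. The change in quiescent cells was -0.36 (SE 0.22, adjusted p = 0.31).

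ITPR3 footprints were also lowest in the senescent states, where the 2 groups overlapped. They were 30.1, 23.2 and 28.1 CPM in cycling cells, 15.2, 16.7 and 17.8 in quiescent cells, 4.92, 6.42 and 3.43 after irradiation and 4.73, 2.34 and 4.69 after etoposide. No library of the quiescent or senescent groups reached the lowest cycling library. The senescent values rest on few reads, the lowest ITPR3 count being 12 reads, in irradiated replicate 3. Footprints changed by -0.71 (SE 0.20, adjusted p = 0.022) in quiescent cells, -2.48 (SE 0.25) after irradiation and -2.80 (SE 0.24) after etoposide, the last 2 with adjusted p of 6.0e-06 and 1.1e-06. The quiescent call was lost without cycling Ribo-seq replicate 1 or 3 or quiescent replicate 2, with adjusted p up to 0.0913.

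ITPR1 RNA was 9.20 and 9.44 CPM in cycling cells, 10.9, 18.5 and 16.2 in quiescent cells, 26.4, 20.2 and 25.7 after irradiation, 39.7, 33.4 and 40.7 after etoposide, and 7.22 and 6.69 under thapsigargin. Every quiescent and senescent library lay above both cycling libraries, and the 2 senescent groups did not overlap. ITPR1 RNA rose by 0.70 (SE 0.21, adjusted p = 0.037) in quiescent cells, by 1.37 (SE 0.21, adjusted p = 0.00025) after irradiation and by 2.02 (SE 0.22, adjusted p = 1.1e-05) after etoposide. The quiescent call was lost without cycling replicate 1 or 2 or quiescent replicate 2 or 3, and in a fit of these 2 states alone, with adjusted p up to 0.214. ITPR1 footprints were 10.7, 11.0 and 8.64 CPM in cycling cells, 27.4, 24.9 and 28.6 after irradiation and 56.6, 45.9 and 50.9 after etoposide. They rose by 1.42 (SE 0.40, adjusted p = 0.012) and by 2.33 (SE 0.39, adjusted p = 0.00040), and the quiescent change of 0.79 (SE 0.38) had an adjusted p of 0.16, which was 0.028 without quiescent Ribo-seq replicate 1.

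ITPR2 moved less. Its RNA was 17.8 and 20.0 CPM in cycling cells, 20.7, 26.5 and 28.3 in quiescent cells, 30.9, 27.9 and 31.7 after irradiation and 34.6, 34.0 and 36.5 after etoposide. It rose by 0.67 (SE 0.15, adjusted p = 0.0037) after irradiation and by 0.89 (SE 0.15, adjusted p = 0.00053) after etoposide. The former call was lost without cycling RNA-seq replicate 1 (adjusted p = 0.0593). ITPR2 footprints rose after etoposide, from 13.9, 12.7 and 13.98 CPM in the cycling libraries to 24.0, 25.2 and 26.6, a change of 0.90 (SE 0.29, adjusted p = 0.026). That call was lost when any 1 of the 3 cycling or 3 etoposide Ribo-seq libraries was left out, with adjusted p up to 0.0814. After irradiation they were 11.9, 13.2 and 9.42 CPM, a change of -0.23 (SE 0.31, adjusted p = 0.59).

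**Figure D1:**
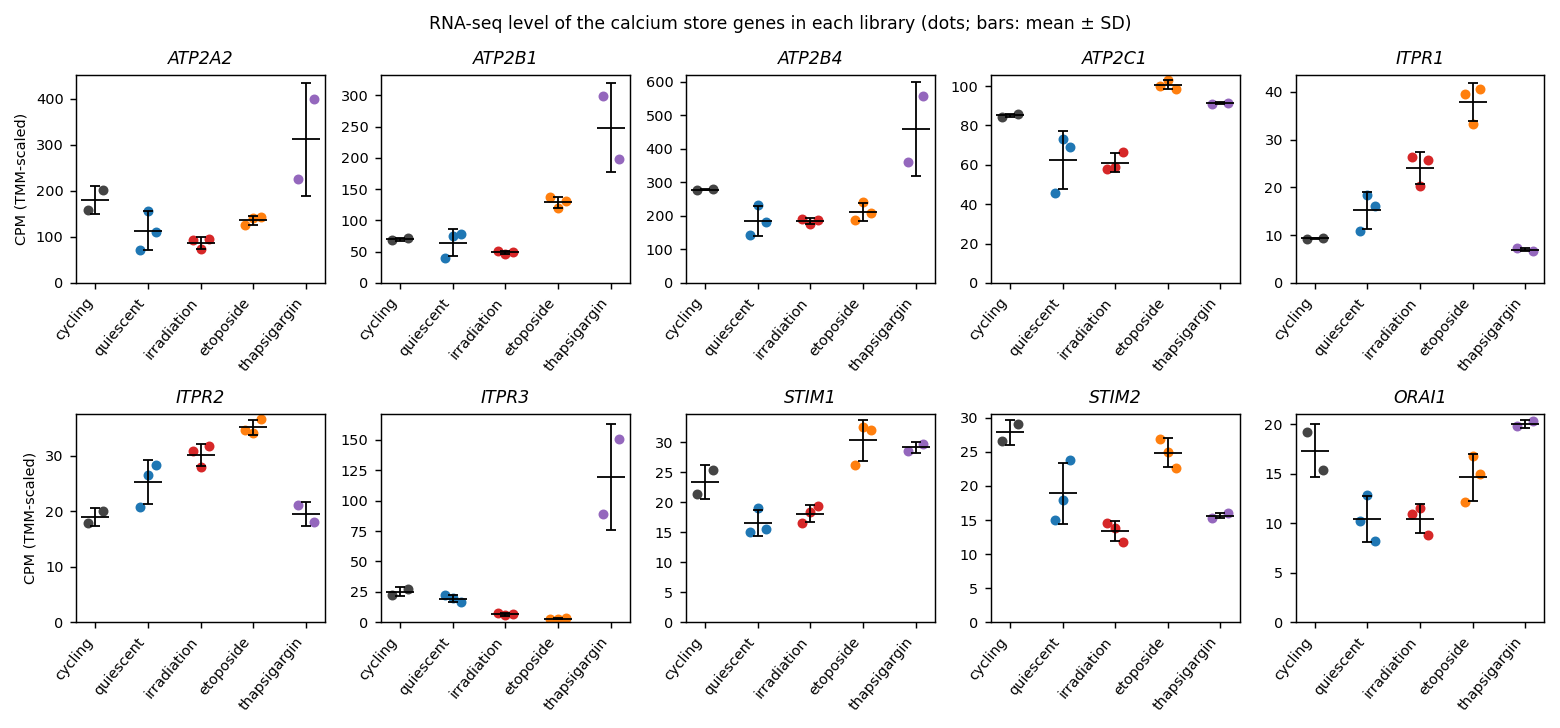
RNA-seq level in CPM (linear axes from 0) of each of the 10 genes in every library, by state. Dots are libraries and bars are the mean ± SD. ITPR3 falls to between 2.71 and 7.73 CPM in the senescent libraries and reaches 89.0 and 151 under thapsigargin, while ITPR1 is highest after etoposide.

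Among the pumps, ATP2A2 fell after irradiation and was not called after etoposide. ATP2A2, the target of thapsigargin, lies at chr12:110280616-110351093. Its RNA was 159 and 202 CPM in cycling cells, 72.2, 157 and 111 in quiescent cells, 94.0, 72.5 and 94.7 after irradiation, 125, 140 and 143 after etoposide and 225 and 398 under thapsigargin. All irradiated and etoposide libraries lay below the cycling ones. So did the quiescent libraries, which spanned a wide range with replicate 1 lowest. After irradiation ATP2A2 RNA fell by 1.05 (SE 0.28, adjusted p = 0.0094), a call lost without cycling RNA-seq replicate 2 (adjusted p = 0.0897). The changes in quiescent cells (-0.67, SE 0.28, adjusted p = 0.13) and after etoposide (-0.41, SE 0.28, adjusted p = 0.27) were not called. The direct test of irradiated against etoposide RNA did not call ATP2A2 either. The quiescent adjusted p became 0.0239 without quiescent RNA-seq replicate 2, and the etoposide one became 0.0191 in a fit of these 2 states alone.

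ATP2A2 footprints fell in quiescent and irradiated cells. They were 739, 771 and 724 CPM in cycling cells, 134, 377 and 405 in quiescent cells, 175, 200 and 165 after irradiation and 578, 660 and 545 after etoposide. All quiescent, irradiated and etoposide libraries lay below the cycling ones, and quiescent replicate 1 had less than any other library. Footprints fell by 1.29 (SE 0.28, adjusted p = 0.0055) in quiescent cells and fell by 2.05 (SE 0.29, adjusted p = 0.00011) after irradiation, and changed by -0.33 (SE 0.28, adjusted p = 0.40) after etoposide. Without quiescent Ribo-seq replicate 1 the quiescent change was -0.93 and still called, whereas a fit of the quiescent and cycling states alone lost the call (adjusted p = 0.0614). The etoposide change was called in the fit of its 2 states alone (adjusted p = 0.00932). Irradiated and etoposide footprints of ATP2A2 differed by -1.72 (SE 0.29, adjusted p = 0.0014), the irradiated being lower.

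ATP2B1, a plasma membrane pump found in most cell types, separated the 2 senescent states most. Its RNA was 68.0 and 71.3 CPM in cycling cells, 39.1, 75.0 and 78.4 in quiescent cells, 50.7, 46.8 and 49.1 after irradiation, 137, 120 and 131 after etoposide and 299 and 198 under thapsigargin. Etoposide and thapsigargin libraries lay above every other library. After etoposide ATP2B1 RNA rose by 0.89 (SE 0.24, adjusted p = 0.012) and its footprints by 1.33 (SE 0.27, adjusted p = 0.0019). After irradiation the RNA change was -0.51 (SE 0.24, adjusted p = 0.11), which was called in a fit of these 2 states alone (-0.53, adjusted p = 0.00018), and footprints fell by 0.97 (SE 0.29, adjusted p = 0.017). The etoposide RNA call was lost without either cycling replicate (adjusted p up to 0.0931), and the irradiation footprint call without cycling Ribo-seq replicate 2 or irradiated replicate 1 or 3 (up to 0.0736).

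ATP2B4, the other plasma membrane pump, and ATP2C1, which loads the Golgi with calcium and manganese, both fell after irradiation. ATP2B4 RNA went from 278 ± 0.799 CPM (SD, n = 2) in cycling cells to 185 ± 8.0 (n = 3), a fall of 0.59 (SE 0.20, adjusted p = 0.033), and ATP2C1 RNA from 85.0 ± 0.846 to 61.1 ± 4.66, a fall of 0.48 (SE 0.16, adjusted p = 0.033). Each RNA call was lost without either cycling replicate or without irradiated replicate 1 or 2, that of ATP2B4 also without irradiated replicate 3, with adjusted p up to 0.130. Footprints of ATP2B4 fell by 1.39 (SE 0.24, adjusted p = 0.00045) and those of ATP2C1 by 1.17 (SE 0.34, adjusted p = 0.013), the latter call being lost without irradiated Ribo-seq replicate 3 (adjusted p = 0.0627). In quiescent cells footprints of ATP2B4 fell by 0.91 (SE 0.23, adjusted p = 0.013) and of ATP2C1 by 1.00 (SE 0.32, adjusted p = 0.037), or by 0.67 without quiescent Ribo-seq replicate 1. Without cycling Ribo-seq replicate 3 neither quiescent footprint change was called, and the ATP2C1 call was also lost without cycling replicate 1 or 2 (up to 0.106). A fit of the 2 states alone lost both calls, and that of ATP2C1 was also lost with no filter on low counts.

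**Figure D2:**
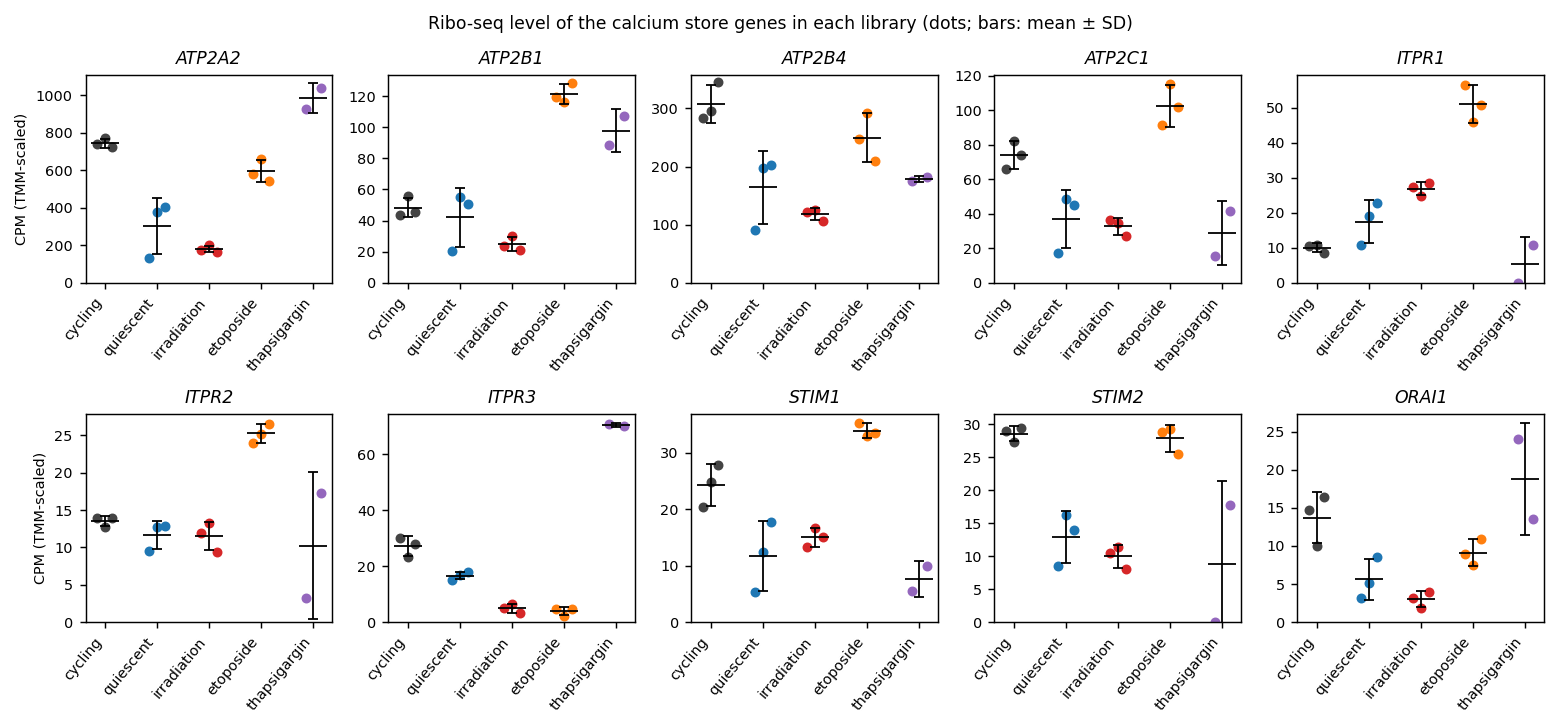
Ribo-seq level in CPM (linear axes from 0) of each of the 10 genes in every library, by state, with dots for libraries and bars for the mean ± SD (cut off at 0). ATP2A2 is between 165 and 200 CPM after irradiation and between 545 and 660 after etoposide, and ITPR1 and STIM2 are at 0 in 1 of the 2 thapsigargin libraries.

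STIM2 and ORAI1 were lower in irradiated cells. STIM2, the sensor that responds to small losses of store calcium, had 26.6 and 29.2 CPM of RNA in cycling cells, 15.0, 18.0 and 23.8 in quiescent cells, 14.6, 13.9 and 11.8 after irradiation, 26.95, 24.9 and 22.7 after etoposide and 15.4 and 15.96 under thapsigargin. The irradiated and thapsigargin libraries lay below all cycling and etoposide libraries. STIM2 RNA fell by 1.06 (SE 0.18, adjusted p = 0.00048) after irradiation and its footprints changed by -1.52 (SE 0.47, adjusted p = 0.020), while the etoposide RNA change was -0.17 (SE 0.18, adjusted p = 0.50). The footprint call was lost without cycling Ribo-seq replicate 3 or irradiated replicate 1 or 3 (up to 0.0811).

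ORAI1, the pore of the store-operated channel, had 19.2 and 15.4 CPM of RNA in cycling cells, 11.0, 11.6 and 8.80 after irradiation and 12.1, 16.8 and 15.0 after etoposide. After irradiation its RNA fell by 0.73 (SE 0.21, adjusted p = 0.014). Its footprints fell by 2.14 (SE 0.42, adjusted p = 0.0012), from 14.7, 9.95 and 16.4 CPM to 3.16, 1.89 and 4.00. These irradiated values rest on few reads. The lowest, in replicate 2, was 5 reads, in a library where 3 reads are 1.13 CPM. The RNA call was lost without cycling RNA-seq replicate 1 or irradiated replicate 3 (up to 0.159). After etoposide the changes were -0.24 (SE 0.20, adjusted p = 0.38) in RNA and -0.58 (SE 0.35, adjusted p = 0.22) in footprints, the latter with an adjusted p of 0.0307 in a fit of these 2 states alone.

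STIM1, the main sensor of store depletion, was not called against cycling cells in either senescent state. Its RNA was 23.4 ± 2.86 CPM (SD, n = 2) in cycling cells, 18.1 ± 1.43 (n = 3) after irradiation and 30.3 ± 3.48 (n = 3) after etoposide. The changes were -0.37 (SE 0.15, adjusted p = 0.074) and 0.37 (SE 0.15, adjusted p = 0.075). In footprints they were -0.71 (SE 0.34, adjusted p = 0.11) and 0.48 (SE 0.31, adjusted p = 0.26). Each of these values was called under at least 1 alternative: the irradiation RNA and footprint changes and the etoposide footprint change in fits of the 2 states alone (adjusted p of 0.0149, 0.00188 and 0.00549), and the etoposide RNA change by DESeq2 (0.0355).

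In quiescent cells STIM1, STIM2 and ORAI1 RNA fell by 0.49 (SE 0.15), 0.56 (SE 0.18) and 0.73 (SE 0.21), with adjusted p of 0.042, 0.049 and 0.027. These 3 calls were lost without either cycling RNA-seq replicate or quiescent replicate 1 and in a fit of the 2 states alone, those of STIM1 and ORAI1 also without quiescent replicate 3 and that of STIM2 without quiescent replicate 2, with adjusted p up to 0.307. The STIM1 and STIM2 calls were also lost with no filter on low counts and with all gene types, and that of STIM2 with both strands counted. Footprints fell by 1.05 (SE 0.31, adjusted p = 0.028) for STIM1 and by 1.28 (SE 0.34, adjusted p = 0.016) for ORAI1, and changed by -1.15 (SE 0.42, adjusted p = 0.066) for STIM2. The STIM1 change was -0.69 without quiescent Ribo-seq replicate 1. The 2 footprint calls were lost without cycling replicate 3 or quiescent replicate 2, that of STIM1 also without cycling replicate 2 and that of ORAI1 without cycling replicate 1 (up to 0.115). A fit of the 2 states alone lost both and called STIM2 footprints (adjusted p = 0.0248).

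Counted over the 10 genes, 1 rose and 3 fell in quiescent RNA, where 15.6% of all genes tested were called, 5.18% higher and 10.4% lower. After irradiation 2 rose and 6 fell, beside 34.9% of all genes (16.2% higher, 18.8% lower), and after etoposide 3 rose and 1 fell, beside 34.5% (16.8% higher, 17.8% lower). In footprints none rose and 6 fell in quiescent cells, beside 21.7% of all genes (7.09% higher, 14.6% lower). After irradiation 1 rose and 7 fell, beside 39.8% (17.2% higher, 22.6% lower), and after etoposide 3 rose and 1 fell, beside 34% (16.4% higher, 17.6% lower). The median log2 change of the 10 genes in footprints was -0.96 in quiescent cells, -1.28 after irradiation and 0.22 after etoposide, beside 0.02, -0.01 and -0.01 over all genes. These comparisons share the cycling libraries. As the 10 genes were chosen with earlier results of these data known, the counts are descriptions and not an independent test.

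The direct comparison of the senescent states gave a difference for most of the 10 genes in footprints. Irradiated footprints were lower for 8 genes and higher for none, where 21.7% of all genes were called (7.77% higher, 13.9% lower). Irradiated RNA was lower for 5 and higher for 1, where 22.6% were called (9.67% higher, 12.9% lower). The gene higher after irradiation was ITPR3, by 1.12 (SE 0.22, adjusted p = 0.0027), since its RNA fell further after etoposide. ITPR1 RNA was lower after irradiation by 0.65 (SE 0.18, adjusted p = 0.018), a call lost without irradiated replicate 2 or etoposide replicate 1 or 3 (up to 0.0694). The largest footprint difference among the 10 was in ATP2B1, at -2.30 (SE 0.30, adjusted p = 0.00034).

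Against quiescent cells, labelled as contact-inhibited and not as senescent, etoposide cells had higher RNA of 6 of the 10 genes and lower RNA of ITPR3. In that comparison 41.7% of all genes were called (21.1% higher, 20.6% lower). In footprints 6 were higher and ITPR3 lower, where 35.3% were called (19.2% higher, 16.1% lower). ITPR1 RNA was higher by 1.32 (SE 0.18) and ITPR3 RNA lower by 2.69 (SE 0.22), with adjusted p of 8.6e-05 and 1.2e-06. Irradiated cells differed from quiescent cells in 3 genes in RNA, where 18.7% of all genes were called (9.01% higher, 9.71% lower). ITPR1 was higher by 0.67 (SE 0.18, adjusted p = 0.021), and ITPR3 and STIM2 were lower by 1.57 (SE 0.21, adjusted p = 0.00017) and 0.50 (SE 0.16, adjusted p = 0.048). The STIM2 call was lost without any 1 irradiated replicate or quiescent replicate 2 or 3 (adjusted p up to 0.174), with a change of -0.30 without quiescent replicate 3, and the ITPR1 call without irradiated replicate 1 or 3 (up to 0.0801). A fit of the 2 states alone lost both calls. That of STIM2 was also lost with no filter on low counts and with both strands counted. In footprints ITPR3 alone was called, where 14.5% of all genes were (6.92% higher, 7.62% lower), with a change of -1.77 (SE 0.25, adjusted p = 0.00033). Without quiescent Ribo-seq replicate 1 the count was 5, the others being ATP2A2 (-1.12, adjusted p = 2.6e-06), ATP2B1 (-1.10, adjusted p = 0.00010), ATP2B4 (-0.77, adjusted p = 0.00068) and ORAI1 (-1.14, adjusted p = 0.049).

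**Figure D3:**
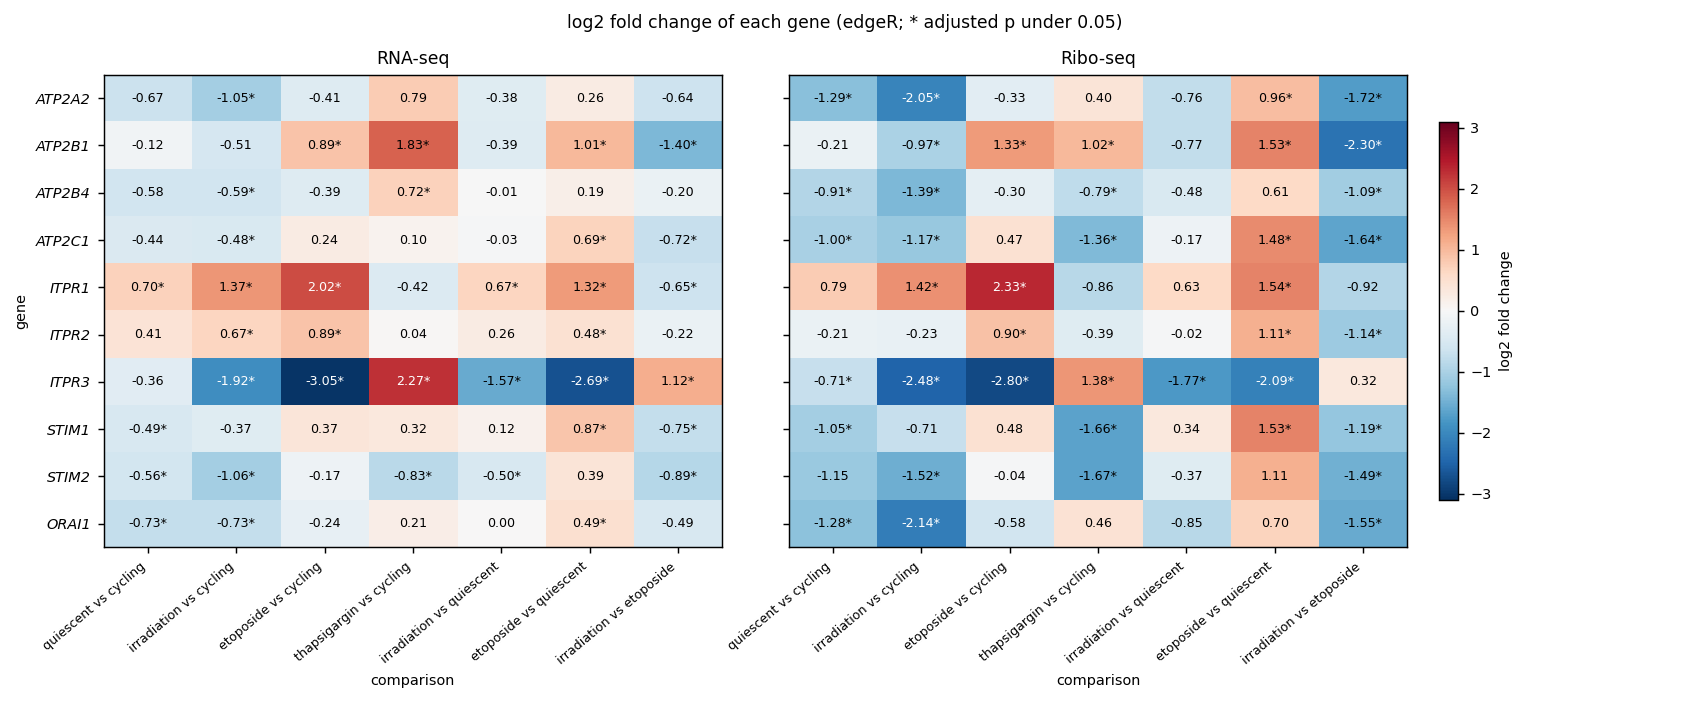
log2 fold change of the 10 genes (rows) in 7 comparisons (columns), for RNA-seq on the left and Ribo-seq on the right; red is higher and blue lower in the state named first, and a star marks an adjusted p under 0.05. ITPR1 and ITPR3 have opposite signs in both senescent states, and 8 genes are starred and blue in Ribo-seq for irradiation against etoposide.

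In the thapsigargin libraries RNA of ITPR3, ATP2B1 and ATP2B4 was higher and that of STIM2 lower among the 10 genes, where 24.5% of all genes were called (11.7% higher, 12.8% lower). ITPR3 RNA rose by 2.27 (SE 0.25, adjusted p = 3.2e-05) and ATP2B1 RNA by 1.83 (SE 0.27, adjusted p = 0.00032). ATP2B4 RNA was 277 and 279 CPM in cycling cells and 360 and 557 under thapsigargin, a rise of 0.72 (SE 0.22, adjusted p = 0.029). Its call was lost in a fit of these 2 states alone. That rise was 0.39 and not called without thapsigargin RNA-seq replicate 2, and the call was also lost without either cycling replicate (up to 0.253). STIM2 RNA fell by 0.83 (SE 0.20, adjusted p = 0.0079), a call lost without cycling RNA-seq replicate 2 (adjusted p = 0.0631).

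ATP2A2 itself was not called under thapsigargin. Its RNA, at 225 and 398 CPM against 159 and 202, lay above both cycling libraries, with a change of 0.79 (SE 0.31, adjusted p = 0.078). The replicates differed widely: the change was 1.15 (adjusted p = 0.0186) without thapsigargin replicate 1 and 0.34 (adjusted p = 0.50) without replicate 2, and DESeq2 gave an adjusted p of 0.0387. Footprints of ATP2A2 were 929 and 1041 CPM against 724 to 771, a change of 0.40 (SE 0.31, adjusted p = 0.31), with an adjusted p of 0.0199 in a fit of these 2 states alone.

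In footprints 2 of the 10 genes rose and 4 fell under thapsigargin, where 44.4% of all genes were called (20% higher, 24.4% lower). ITPR3 footprints were 70.8 and 69.9 CPM, above the 23.2 to 30.1 of cycling cells, a rise of 1.38 (SE 0.23, adjusted p = 0.00037). ATP2B1 footprints were 88.3 and 108 CPM against 43.7 to 55.5, a rise of 1.02 (SE 0.31, adjusted p = 0.017), lost without thapsigargin Ribo-seq replicate 2 (adjusted p = 0.0973). ATP2B4 went the other way from its RNA: footprints were 174 and 182 CPM against 284 to 346, a fall of 0.79 (SE 0.27, adjusted p = 0.028), lost without either thapsigargin replicate or cycling replicate 3 (up to 0.126).

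The other 3 footprint falls rested on few reads. ATP2C1 had 29 and 80 reads in the 2 thapsigargin libraries, STIM1 10 and 19, and STIM2 0 and 34. The changes were -1.357 (SE 0.42, adjusted p = 0.019), -1.66 (SE 0.47, adjusted p = 0.012) and -1.67 (SE 0.62, adjusted p = 0.041). Without thapsigargin Ribo-seq replicate 1 they were -0.84, -1.31 and -0.70, and the calls were lost. Without replicate 2 the ATP2C1 change was -2.21. The STIM2 call was also lost without any 1 cycling Ribo-seq library (up to 0.153), with no filter on low counts and in a fit of the 2 states alone. A count of 0 in replicate 1 allows up to 3 reads, or 1.63 CPM (counting error only).

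ITPR1 likewise had 0 and 21 reads under thapsigargin. ITPR2 had 6 and 33 reads, and its footprint change was 0.34 without replicate 1 and -2.03 without replicate 2. The 2 libraries thus disagree for ITPR1, ITPR2 and STIM2. ITPR2 RNA was 21.0 and 18.0 CPM under thapsigargin, against 17.8 and 20.0 in cycling cells. Of 8221 genes with at least 20 reads in replicate 2, 78 had none in replicate 1, and in the other direction 23 of 7972. The ITPR1 footprint change of -0.86 (SE 0.63, adjusted p = 0.29) became 0.10 without replicate 1. Its RNA changed by -0.42 (SE 0.23, adjusted p = 0.20). RNA changes were small for ORAI1 (0.21, SE 0.22, adjusted p = 0.53), STIM1 (0.32, SE 0.17, adjusted p = 0.19) and ATP2C1 (0.10, SE 0.18, adjusted p = 0.71).

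Translational efficiency (TE), the ratio of footprints to RNA, was tested over all 27 libraries and 11714 genes. Under thapsigargin it fell for 3 of the 10 genes, by 1.54 for ATP2B4 (SE 0.34, adjusted p = 0.0029), 1.48 for ATP2C1 (SE 0.44, adjusted p = 0.019) and 2.00 for STIM1 (SE 0.47, adjusted p = 0.0041), where 20.7% of all genes were called (7.86% higher, 12.8% lower). The ATP2C1 value was -0.98 and not called without thapsigargin Ribo-seq replicate 1, -2.40 without replicate 2, and not called without cycling RNA-seq replicate 1. The TE of ITPR3 changed by -0.91 (SE 0.33, adjusted p = 0.053) and that of ATP2B1 by -0.84 (SE 0.40, adjusted p = 0.14). The ITPR3 value was called under 4 alternatives, with the lowest adjusted p of 0.0124 without thapsigargin RNA-seq replicate 1. Thapsigargin Ribo-seq was counted on another gene list than cycling Ribo-seq, which touches every value of this contrast.

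In quiescent, irradiated and etoposide cells no TE change of the 10 genes was called by edgeR or by DESeq2. Over all genes 0.00854%, 0.0512% and 0.0683% were called by edgeR. At an unadjusted p under 0.05 there were 0, 4 and 0 of the 10. The TE of ATP2A2 after irradiation changed by -0.88 (SE 0.40, adjusted p = 0.69), and in a fit of these 2 states alone it was called (-1.02, adjusted p = 0.000622) together with 4 other members.

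**Figure D4:**
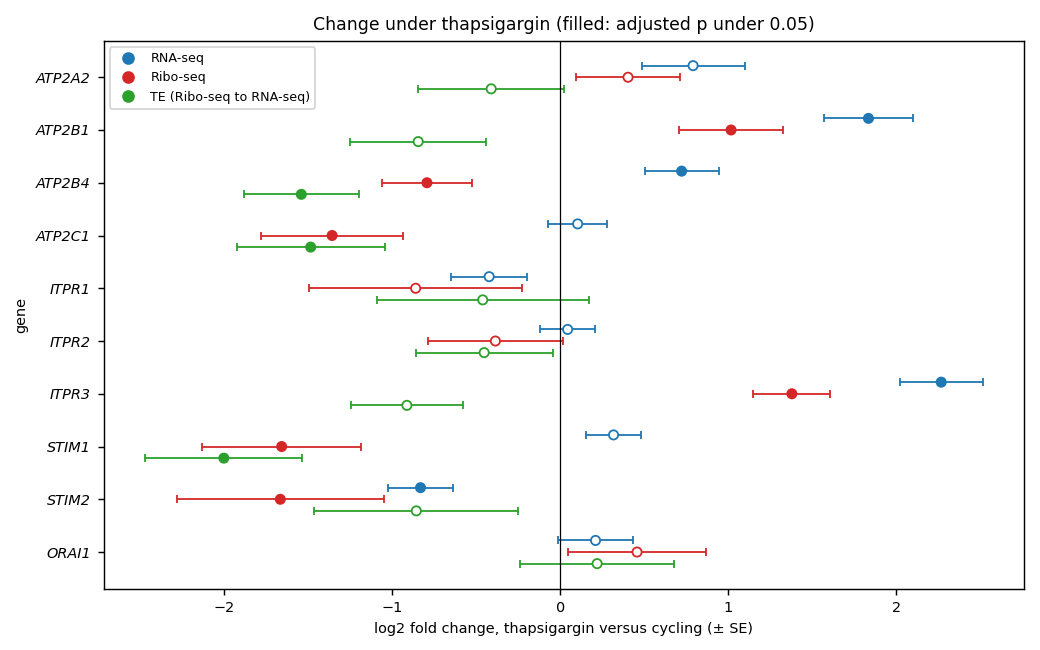
Change under thapsigargin against cycling cells (x axis, log2 fold change ± SE) for the 10 genes, in RNA-seq, Ribo-seq and their ratio (TE); filled points have an adjusted p under 0.05. ITPR3 and ATP2B1 are higher in both assays, and ATP2B4 is at 0.72 in RNA and -0.79 in footprints.

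Other genes of calcium handling were described by 8 lists, 97 genes in all, of which 79 were tested in RNA-seq and 71 in Ribo-seq. The lists were chosen with earlier results of these data known, so their counts are descriptions. Each list's RNA count stands beside the shares of all genes called: in quiescent cells 5.18% higher and 10.4% lower, after irradiation 16.2% and 18.8%, after etoposide 16.8% and 17.8%, and under thapsigargin 11.7% and 12.8%. The calcium-binding proteins of the ER lumen, which buffer the store and fold proteins, were lower in quiescent and irradiated cells. Of 13 tested, 10 fell in RNA and 11 in footprints of quiescent cells, 11 and 13 after irradiation, and 2 and 1 after etoposide, with none higher. The shares of all genes with lower footprints were 14.6%, 22.6% and 17.6%, so the etoposide counts are no result about the list. Their median change in footprints was -1.16, -1.69 and -0.08, beside 0.02, -0.01 and -0.01 over all genes. RCN3, a reticulocalbin, had the largest fall in RNA in each, by 1.33, 2.53 and 1.63. The quiescent RNA count was 1 and 2 without cycling RNA-seq replicate 1 and 2, 6 without quiescent replicate 1 or 2, and 2 in a fit of the 2 states alone, where the footprint count was 3. Under thapsigargin HSPA5 (BiP), the chief ER chaperone, rose by 1.499 in RNA and 0.87 in footprints while 3 and 6 of the list fell, beside 12.8% and 24.4% of all genes. The list's median footprint change there was -0.81, beside -0.11 over all genes, while ATP2A2 footprints were not called. The HSPA5 RNA rise was 0.60 and not called without thapsigargin RNA-seq replicate 2, and was not called without either cycling replicate. Its footprint call was lost without cycling Ribo-seq replicate 1 or 2 or either thapsigargin replicate.

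Channels of store release and leak outside the IP3 receptor family fell in number 5 of 10 in quiescent RNA and 4 of 10 after irradiation, with none after etoposide, beside 10.4%, 18.8% and 17.8% of all genes. The quiescent count was 2 and 3 without cycling RNA-seq replicate 1 and 2. TMBIM6, an ER membrane protein linked to calcium leak, fell by 1.31 and 1.35. RYR2, a ryanodine receptor, rose after irradiation by 2.74, a call lost when any 1 cycling or irradiated RNA-seq library was left out. Of the 5 tested pump regulators, 1 rose and 2 fell in quiescent RNA, 1 rose and 3 fell after irradiation, and 1 rose after etoposide. Of all genes 15.6%, 34.9% and 34.5% were called in these comparisons. PLN (phospholamban, an inhibitor of the ER pump) rose by 3.18 in quiescent RNA. TMX1, a thioredoxin-like ER protein, changed by -1.34 there and by -1.74 after irradiation. Both quiescent calls were lost without either cycling RNA-seq replicate. C4orf3, also on this list, rose in RNA by 0.674 after irradiation and by 0.672 after etoposide. Its footprints rose by 0.65 in quiescent cells, 0.95 after irradiation, 0.61 after etoposide and 0.89 under thapsigargin. No alternative lost any of these C4orf3 calls.

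Partners of the IP3 receptors moved both ways: of 9 tested, 4 rose and 1 fell in quiescent RNA, 4 rose and 3 fell after irradiation, 2 rose and 1 fell after etoposide, and 3 rose and 1 fell under thapsigargin. Of all genes 15.6%, 34.9%, 34.5% and 24.5% were called in these comparisons, and the etoposide count of 3 of 9 is near that share. IRAG1, which ties IP3 receptors to cGMP signalling, rose by 1.87 after irradiation and 1.03 after etoposide. ITPRIP, an IP3 receptor interacting protein, changed by -1.55 in quiescent cells, -2.07 after irradiation and 1.62 under thapsigargin. The quiescent ITPRIP call was lost without cycling RNA-seq replicate 2, and the thapsigargin one without cycling replicate 1 or thapsigargin replicate 2, where it was 0.89. Without cycling replicate 1 the numbers of partners that rose were 2, 2, 1 and 1 in the 4 comparisons. Without cycling replicate 2 or quiescent replicate 3, 2 rose in quiescent cells, and without thapsigargin replicate 2, 1 rose under thapsigargin. ITPRIP was also the gene whose RNA followed ATP2A2 most closely over the 13 RNA-seq libraries (Pearson r = 0.971 of log2 CPM), followed by NUS1 (0.969) and SPPL3 (0.960). These correlations share libraries and states and are descriptions.

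Of 13 other store-operated entry genes, none rose and 4 fell in quiescent RNA, none rose and 7 fell after irradiation, 2 rose and 4 fell after etoposide, and 1 rose and 2 fell under thapsigargin, where 15.6%, 34.9%, 34.5% and 24.5% of all genes were called. The thapsigargin count is near that share. ESYT1, which tethers the ER to the plasma membrane, fell by 1.38 in quiescent cells and 1.80 after irradiation. The quiescent count was 2 and 1 without cycling RNA-seq replicate 1 and 2. After etoposide TRPC6, a cation channel, rose by 1.23 and TRPC5 fell by 2.02. Of the other pumps and exchangers 4 were tested in RNA, and none was called against cycling cells. In footprints 2 were tested, of which 1 fell in quiescent cells and 2 fell after irradiation, beside 14.6% and 22.6% of all genes. The irradiation count was 1 with any single library left out. SLC8A1 had the largest falls, by 1.55 and 1.98, the former call being lost in a fit of the 2 states alone. Of 12 mitochondrial uptake genes MCUB, the inhibitory subunit of the uniporter, had the largest falls in the senescent states, by 1.49 and 2.02 in RNA. Of 13 genes of IP3 production and removal, 5 rose and 1 fell after irradiation and 3 rose and 1 fell after etoposide, the latter near the 34.5% of all genes, and PLCE1, a phospholipase C, fell by 1.33 and 1.48. Without cycling RNA-seq replicate 2, 1 rose in each senescent state, and after irradiation 1 rose without cycling replicate 1 and 2 without irradiated replicate 1.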

How the data were processed

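The authors deposited unnormalized read counts for each gene, in the layout of STAR's gene counts per the file headers. The submitters' processing notes name STAR 2.7.10b, hg38, bcl2fastq and DESeq2 1.36.0, and the annotation and trimming are not given in the sources used here. The reverse strand column was used for RNA-seq and the forward strand column for Ribo-seq. Of 62703 IDs in RNA-seq and thapsigargin Ribo-seq and 60664 in the other 12 Ribo-seq libraries, the 60534 shared ones were kept. Of these, 40525 were matched by ID, symbol or older symbol to RefSeq GRCh38.p14, whose coordinates are given. The 19307 protein-coding ones entered the filter on low counts, with ORAI1 kept although RefSeq calls its type otherwise. That filter left the 13292 genes tested in RNA-seq and 11765 in Ribo-seq.

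Counts were fitted in edgeR 4.0.16 (R 4.3.3; TMM, filterByExpr, robust quasi-likelihood F test) over all 5 states. TE was the interaction of library type and state. DESeq2 1.42.0 and other settings were alternatives. The fits were tested on simulated data. No 2 replicates of a state agreed within counting noise, so none was merged, which does not show that they were separate cultures. Same-numbered cycling and quiescent Ribo-seq libraries deviated together from their state means in 3 of 3 pairs (r from 0.144 to 0.267). The 6 other pairs gave -0.262 to 0.0543, which is lower partly by construction, since deviations within a state cancel out. The numbers were taken to pair that comparison and no other. The reported fits hold no term for this pairing, and a fit with the replicate number as a block was run as an alternative. Named genes are the 10 members, the largest called rise or fall of each list, and markers. The members and lists were chosen with earlier results of these data known. Of 8 promoter motifs, 6 were searched first and 2 were added after those gave no match.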

Additional observations from a re-analysis of the deposited data

Results flagged for a closer look

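Irradiation and etoposide both induced senescence, and their effects on 14 gene and assay pairs differed by the direct test between the 2 senescent states (edgeR, adjusted p under 0.05). In RNA-seq, log2 values for irradiated against etoposide cells were -1.40 for ATP2B1, -0.72 for ATP2C1, -0.65 for ITPR1, 1.12 for ITPR3, -0.75 for STIM1 and -0.89 for STIM2. In Ribo-seq they were -1.72 for ATP2A2, -2.30 for ATP2B1, -1.09 for ATP2B4, -1.64 for ATP2C1, -1.14 for ITPR2, -1.19 for STIM1, -1.49 for STIM2 and -1.55 for ORAI1. For ITPR1 in RNA-seq and for ITPR2, STIM1, STIM2 and ORAI1 in Ribo-seq, the call was lost when single libraries of the 2 states were left out, with adjusted p up to 0.0694, 0.0847, 0.100, 0.135 and 0.0805. The STIM2 footprint call was also lost with no filter on low counts.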

How the results depend on the processing

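Of 79 calls of single members, 0 reversed and 42 were kept under every alternative run. DESeq2 and RLE scaling lost 0, all gene types 3, both strands 2, no filter on low counts 7, a fit of the compared states alone 15, and leaving out a library 36. In quiescent against cycling RNA-seq, 2 members were called with no filter or with all gene types and 0 in the fit of the 2 states alone, against 4. The fit of the compared states alone gave 1 against 3 for irradiated against quiescent RNA-seq, 2 against 6 for quiescent against cycling Ribo-seq, 9 against 4 for etoposide against cycling Ribo-seq, and 5 against 0 for TE after irradiation; the cause was not tested. Over all genes, that fit called 853 against 2069 in quiescent RNA-seq, 1507 against 3257 in thapsigargin RNA-seq, 6022 against 3999 in etoposide Ribo-seq, 4136 against 2552 for irradiated against etoposide Ribo-seq, and in TE 761 against 6, 28 against 8 and 1053 against 2424 for irradiation, etoposide and thapsigargin. TE calls over all genes were 6, 32 and 40 by DESeq2 in quiescent, irradiated and etoposide cells, against 1, 6 and 8, with 2 and 14 in quiescent and etoposide cells without the filter and 2 and 10 in quiescent and irradiated cells with all gene types. Leaving out 1 library, the member counts ranged in RNA-seq from 0 to 5 (quiescent), 4 to 6 (irradiated), 3 to 5 (etoposide) and 2 to 5 (thapsigargin against cycling), 1 to 4 and 6 to 7 (irradiated and etoposide against quiescent) and 5 to 6 (irradiated against etoposide). In Ribo-seq they ranged, in the same order, from 1 to 7, 5 to 8, 3 to 3, 2 to 6, 1 to 5, 6 to 9 and 4 to 6, and for TE under thapsigargin from 2 to 6. Without the thapsigargin Ribo-seq replicate 1, the ITPR1 footprint change reversed to 0.10 (without replicate 2 it was -9.56, a fitted value against 0 reads and no bound), and BCL2L1 footprints under thapsigargin, 0.86, reversed to -0.62 with both strands counted. Same-numbered libraries correlated over 0.1 in 6 of 23 pairs of RNA-seq and 5 of 26 of Ribo-seq; by these the numbers pair quiescent with cycling Ribo-seq, where the replicate block changed no member's call, and elsewhere libraries share only a number. With the replicate block the member counts were 3, 9, 4, 4, 2, 7 and 6 in RNA-seq, 6, 8, 4, 6, 1, 8 and 8 in Ribo-seq and 3 for TE under thapsigargin, and 3 calls were lost (ITPR1 and STIM2 in quiescent RNA and STIM2 in irradiated against quiescent RNA), while STIM1 RNA after irradiation was called (-0.39, adjusted p = 0.045). Depth limits the footprints of thapsigargin cells, where 6 of the 10 members had under 100 reads in both libraries, and of irradiated cells, where 5 to 8 had.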
